A study of Mus musculus with 3 samples.

Results

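Olfactory receptor genes were described in the chromatin of LT-HSCs (hematopoietic stem cells of the long-term type), the most primitive cells of blood formation. They were taken by symbol, as all protein-coding genes named Olfr followed by a number, which gave 1135 of the 21938 protein-coding genes of mm10. The donors were females of wild-type genotype, 24 months old, and marrow cells were enriched by c-Kit before sorting. The mice were C57BL/6J, and how many gave cells is not stated for this sample. The cells were profiled by DOGMA-seq, which measures chromatin accessibility by ATAC together with RNA and antibody tags in each cell, with 1 library per assay, so no replicate error could be measured. The ATAC library held 43705382 fragments, of which 88.2% lay in the 3629 cells used here, with a median of 10300 fragments per cell (range 3859 to 45151). The defining genes of HSCs were accessible, with 12 of 12 listed genes open (a fragment level clearly above background, as defined with the results) where 76.6% of all protein-coding genes were, among them Gata2, a transcription factor needed by HSCs, at 332 fragments per kb. Values throughout are sums over these cells, and intervals are exact 95% intervals that cover counting error only.

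Olfactory receptors are the odorant receptors of the nose, G protein-coupled receptors that form the largest gene family of the mouse. Each olfactory neuron expresses 1 allele of 1 receptor gene, and the other copies are held in compact heterochromatin. Class I receptors lie together in a cluster on chromosome 7 that surrounds the β-globin genes, and class II receptors lie in clusters on many chromosomes. Blood cells have no known need for most of these receptors, so their genes are a large set of loci expected at low accessibility, although a few members are known to be expressed outside the nose.

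Sequences of 5 members are given as examples of accessible members and of 1 member with few fragments. The first 4 genes all lie in the cluster around the β-globin genes and do not stand for all open members. Of 29 strong stretches described below, 8 lay upstream. For the first 4 genes the sequence is the 300-bp stretch of the window with the most fragment midpoints, all upstream of the annotated start, and for Olfr1256, among the members with the fewest fragments for their length, it is the 300 bases before the start. All are given 5′ to 3′ on the strand of the gene from mm10: Olfr646 at chr7:104103973-104104272 (plus strand, 432 fragment midpoints), Olfr552 at chr7:102597470-102597769 (plus, 249), Olfr633 at chr7:103942687-103942986 (plus, 80), Olfr67 at chr7:103792944-103793243 (minus, 52) and Olfr1256 at chr2:89841556-89841855 (minus, 1 overlapping fragment). Capitals mark matches on either strand to the motif of GATA factors written AGATAA, that of the ETS family written AGGAAG, that of the RUNX family written TGTGGT, that of AP-1 written TGANTCA, or the core motif of the insulator protein CTCF.
Olfr646: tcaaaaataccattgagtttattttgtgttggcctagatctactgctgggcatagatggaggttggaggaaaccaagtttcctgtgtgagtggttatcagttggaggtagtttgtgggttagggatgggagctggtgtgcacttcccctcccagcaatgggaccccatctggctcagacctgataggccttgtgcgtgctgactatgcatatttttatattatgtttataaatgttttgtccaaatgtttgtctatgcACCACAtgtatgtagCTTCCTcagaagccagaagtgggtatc
Olfr552: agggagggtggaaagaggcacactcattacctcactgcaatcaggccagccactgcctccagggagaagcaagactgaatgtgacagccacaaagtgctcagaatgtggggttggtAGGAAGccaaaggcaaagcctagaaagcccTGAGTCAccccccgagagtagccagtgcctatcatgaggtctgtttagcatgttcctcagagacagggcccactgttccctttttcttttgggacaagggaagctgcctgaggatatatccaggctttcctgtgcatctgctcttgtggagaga
Olfr633: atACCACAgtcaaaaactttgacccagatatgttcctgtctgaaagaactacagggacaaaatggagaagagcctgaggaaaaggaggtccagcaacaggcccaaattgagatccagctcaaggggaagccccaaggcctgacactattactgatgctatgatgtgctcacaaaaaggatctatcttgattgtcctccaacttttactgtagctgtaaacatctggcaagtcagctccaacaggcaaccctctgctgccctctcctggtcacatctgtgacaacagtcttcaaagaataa
Olfr67: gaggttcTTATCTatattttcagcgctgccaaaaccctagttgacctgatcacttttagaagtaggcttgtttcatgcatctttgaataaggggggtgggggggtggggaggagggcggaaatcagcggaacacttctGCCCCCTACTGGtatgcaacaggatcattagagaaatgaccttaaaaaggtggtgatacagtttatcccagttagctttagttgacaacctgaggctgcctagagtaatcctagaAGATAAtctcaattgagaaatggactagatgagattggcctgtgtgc
Olfr1256: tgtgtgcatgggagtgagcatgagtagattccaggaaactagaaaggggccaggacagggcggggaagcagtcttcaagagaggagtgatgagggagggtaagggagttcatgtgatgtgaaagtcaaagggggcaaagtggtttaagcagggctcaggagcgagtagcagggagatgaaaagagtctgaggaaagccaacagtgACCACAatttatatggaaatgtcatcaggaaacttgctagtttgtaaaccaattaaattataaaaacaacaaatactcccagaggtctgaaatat
The stretch of Olfr67 held a CTCF match and 2 GATA matches, that of Olfr646 1 ETS and 1 RUNX match, and that of Olfr552 1 ETS and 1 AP-1 match. Olfr633 and the barely covered Olfr1256 each held 1 RUNX match.

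Promoters of the family were poor in GC. RefSeq promoters of 300 bases (GRCm38.p6, around the annotated start) were found for 931 members, as 935 sequences, and had a median GC content of 35.0% against 53.3% in 31916 promoters of other genes. They held a median of 1 CpG dinucleotide against 8, and their CpG count was 0.130 of that expected from base composition against 0.567. The homeodomain motif TAATTA, of the kind bound by Lhx2 at olfactory receptor genes, was in 18.6% of member promoters against 4.90% of others. The palindromic motif of the EBF factors, which act with Lhx2 in olfactory neurons, was in 0.535% against 0.915%. These shares describe base composition as well as motifs, since TAATTA holds only A and T.

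The median olfactory receptor gene had about as many fragments per kb as the median window of DNA far from any gene, and a small part of the family had many more. Over gene bodies and the 2 kb upstream, members held 23083 fragments on 9780 kb, or 0.0599% of all fragments. Their summed level was 2.36 fragments per kb (2.33 to 2.39), against 1.48 (1.48 to 1.49) in gene-distant windows and 26.3 in the 19873 protein-coding genes outside the families compared here. The summed ratio to gene-distant DNA was 1.59 (1.57 to 1.61), but this rested on few genes. The median member had 0.681 fragments per kb, against 0.600 in the median gene-distant window, a difference smaller than the step of 0.2 that 1 fragment makes in a window of 5 kb, and lay below the summed gene-distant level of 1.48, which was itself raised by the top 1% of windows with 26.1% of fragments. The median member held 6 fragments in 5 of 3629 cells, over a median window of 8.002 kb. A total of 36 members had no fragment, or 3.17% of members against 8.31% of gene-distant windows, which are shorter (5 kb) and so reach 0 more often at the same level. With 3 fragments as the limit that a count of 0 allows, which is lower than the upper end of the exact interval used to rank members, this limit ran from 0.293 to 1.03 per kb with window length.

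**Figure D1:**
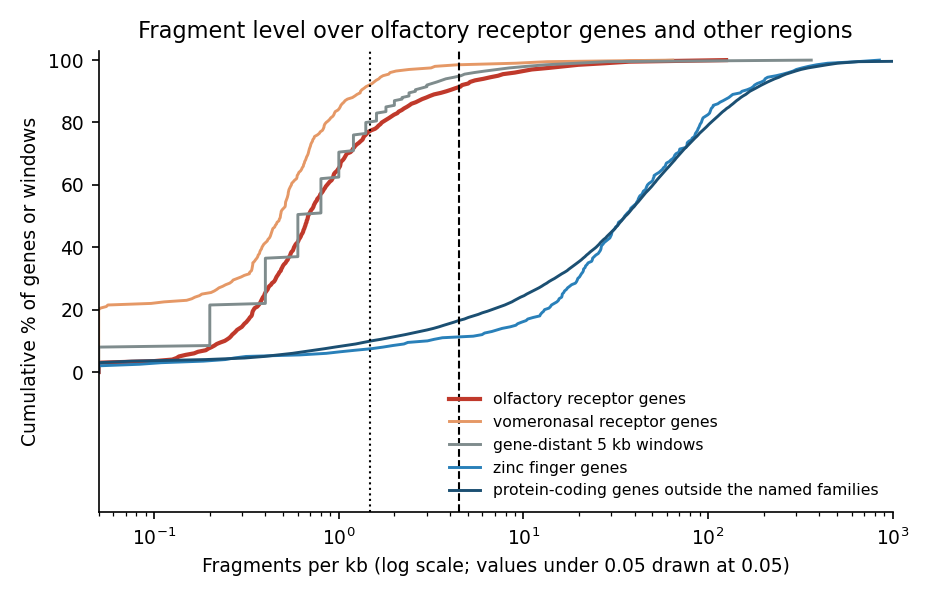
Cumulative share of genes or windows (%, vertical axis) by fragments per kb summed over 3629 cells (horizontal log axis, values under 0.05 drawn at 0.05). Dotted and dashed lines mark 1 and 3 times the summed gene-distant level of 1.48. The olfactory receptor curve (median 0.681) runs beside that of gene-distant windows (0.600) and far left of zinc finger genes (35.4).

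Other families of receptor and hair genes had medians between 0.483 and 2.60. Vomeronasal receptors, the pheromone receptors, had a summed level of 1.10 fragments per kb and a median of 0.483 over 331 genes. Bitter taste receptors had a median of 0.683 over 35 genes, and trace amine receptors, a small family of nasal receptors, 2.60 over 15 genes, with a summed level of 6.13 and 4 open. Keratin-associated genes of hair had 1.01 over 57 genes. In zinc finger genes, also a clustered family, the median was 35.4 over 394 genes, and in ribosomal protein genes 262 over 98 genes. Sequence uniqueness was lower in vomeronasal genes (median 83.5% of 50-mers) than in olfactory receptor genes (95.3%), and its part in these levels was not tested. The 272 olfactory receptor pseudogenes had a median of 0.680, against 0.681 for the protein-coding members, and a summed level of 3.79 against 2.36. Their share below background was 18.0% against 43.6%, but their windows were shorter (median 2.93 against 8.002 kb), and a short window can seldom be called below, so the shares cannot be compared.

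A gene was called open if the lower limit of its fragments per kb was above 3 times the gene-distant level, and below background if its upper limit was under that level. Open members numbered 67, or 5.90%, against 76.6% of all protein-coding genes and 3.30% of gene-distant windows. A longer window can be called open at a lower level, and member windows were mostly longer than gene-distant ones. Over the alternative settings the count of open members ran from 44 to 143. Below background were 495 members, or 43.6%, against 9.78% of all protein-coding genes and 37.0% of gene-distant windows. Gene-distant windows are shorter and less easily called below, so their share is not like for like with that of members. At the median window a member needed 49 fragments to be called open. The members on either side of the limit were Olfr1394, open with 61 fragments at 5.82 per kb, and Olfr1033, not open with 137 fragments at 5.16 per kb on a longer window. Of the open members, 57 had windows that overlapped no gene outside the family and lay 2 kb or more from the start of any. The open members together held 61.2% of all member fragments. Their level was 15.9 fragments per kb (15.7 to 16.2), and that of the other 1068 members was 1.03 (1.005 to 1.05). The latter was 1.15 times (1.12 to 1.17) the level of the 29088 gene-distant windows that were not open by the same rule.

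The highest member was Olfr646, a class I receptor gene (chr7:104104873-104109766), with 864 fragments, or 125 per kb (117 to 134). These fragments came from 697 cells, or 19.2% of cells, with at most 6 in any cell, and 432 of them centred on the upstream stretch shown above, at 750 bp before the start. The stretch was fully unique in 50-mers. Its nearest protein-coding start outside the family, that of Ubqln5, was 24953 bp away. Its level lay between those of the HSC genes Hlf at 97.8 and Tal1 at 180 fragments per kb. These are not like for like, since level depends on window length. The window of Olfr646 was 6.89 kb, against 56.4 kb with 5512 fragments for Hlf and 17.3 kb with 3111 for Tal1.

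Olfr433 (chr1:174040705-174044411) and Olfr94 (chr17:37196425-37200994) followed with 55.2 (49.3 to 61.6) and 53.3 (47.8 to 59.2) fragments per kb. The strongest stretch of Olfr433 lay 300 bp after the start in an untranslated exon, and that of Olfr94 3669 bp after the start in the coding exon. The other 7 of the 10 highest members had 29.5 to 38.9 fragments per kb: Olfr520, Olfr552, Olfr459, Olfr658, Olfr1509, Olfr90 and Olfr649. In 2 of them the strongest stretch lay near the start. That of Olfr552 was centred 150 bp before it and held 53.9% of the fragments of the gene, and that of Olfr658 was centred 28 bp after it and held 64.7%. In Olfr90 the strongest stretch held only 20.8% of 216 fragments, so its signal was spread over the window.

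Long windows took in other genes in the case of Olfr56 and Olfr643, which are named here after their values were seen. The annotated window of Olfr56 spans 158 kb and includes Ifi47, Tgtp1 and Tgtp2, genes of interferon-induced GTPases. It held 3689 fragments, the most among the 1135 members. The window of Olfr643 spans 141 kb and includes Olfr646, and its strongest stretch overlaps that of Olfr646. Olfr643 and Olfr646 were both called open and both count among the 67. All 864 fragments of Olfr646 were also among the 1399 of Olfr643, and no call was made for Olfr643 without them. In all, 113 members had a window that overlapped that of another member. Without the members whose window is longer than 100 kb, the summed ratio to gene-distant DNA was 1.35.

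Stretches of 300 bp with at least 30 fragment midpoints were found in 32 members. After removal of 1 that overlapped a stronger stretch and of 2 with under 90% unique 50-mers, 29 remained, 7 of them centred within 1 kb of the start. By the centre of the stretch, 8 lay upstream, 9 in untranslated exons, 9 in introns and 3 in coding exons. The CTCF motif was in 4 of the 29, or 13.8%, those of Olfr67, Olfr701, Olfr750 and Olfr1410 (the last 3 named after their values were seen), against 0.340% of 32058 tiles of the same length over all member windows and 3.52% of the promoters of other genes. The RUNX motif was in 37.9% against 19.7% of tiles, the ETS motif in 44.8% against 27.3%, and the GATA motif in 20.7% against 24.99%. The AP-1 motif was in 13.8% against 9.57%, the homeodomain motif in 3.45% against 15.5%, and the EBF motif in 0% against 0.377%. Stretches were chosen by fragment count and had more GC (median 44.7% against 37.3%), and these shares are descriptions of letters, not of bound factors.

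In the mean over genes, open members had no single sharp peak at starts, unlike other genes. In the 200 bp before the start, 20803 protein-coding genes outside the family had 2045 insertion sites per kb and gene, against 61.1 at 2.8 to 3.0 kb upstream. Open members had 61.5 in the same 200 bp and 60.0 at 1.4 to 1.6 kb upstream. This mean takes in single genes with strong stretches at different places. Examples are Olfr646, with 432 fragment midpoints centred 750 bp before the start, and Olfr658, with 156 centred 28 bp after it. Members that were not open had 2.42 before the start and between 1.65 and 2.59 in all bins within 3 kb.

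**Figure D2:**
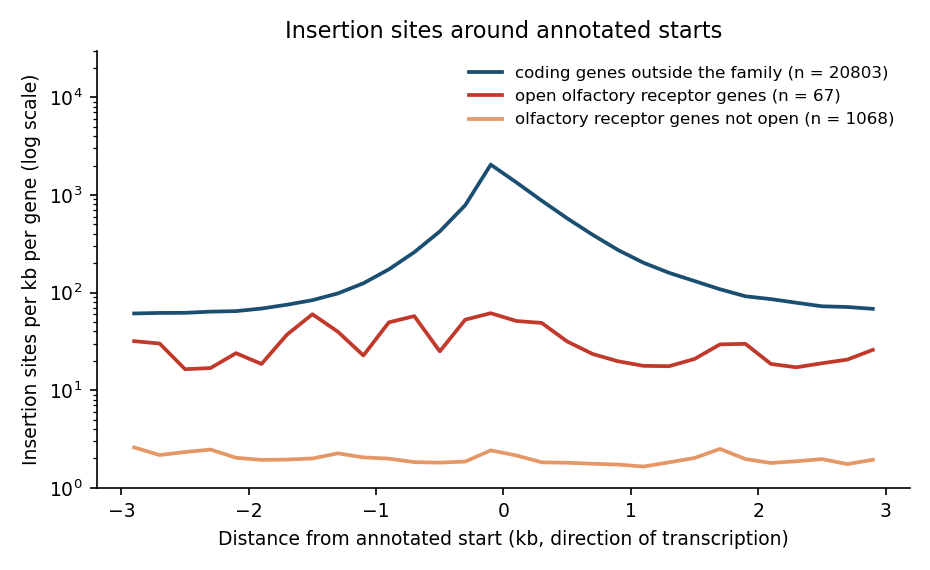
Insertion sites per kb and gene in bins of 200 bp (vertical log axis) by distance from the annotated start in kb (horizontal axis, direction of transcription). Lines are means over protein-coding genes outside the family (n = 20803), open members (n = 67) and members not open (n = 1068), and the members not open form a flat line between 1.65 and 2.59.

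Receptors known from work outside or inside the nose differed in level. Of 9 listed, 4 had intervals that took in the gene-distant level of 1.48, 4 lay above it and 1 below. Below it were 43.6% of all members and 9.78% of all protein-coding genes. The share of all genes with intervals above it was not counted, so the 4 are a description only. Olfr544, reported in metabolic tissues, was open at 16.2 fragments per kb (13.6 to 19.2), with 134 fragments in 124 cells. Olfr78, an oxygen and acetate sensing receptor of the carotid body and blood vessels, had 2.48 (1.88 to 3.22), and the neighbouring Olfr558 had 2.95 (2.06 to 4.11). Olfr1507 (MOR28), a model gene for receptor choice, had 4.69 (3.38 to 6.34). Olfr2 (I7), Olfr16 (MOR23), Olfr17 (P2) and Olfr160 (M72) lay between 0.931 and 1.08 fragments per kb with 8 to 13 fragments each. Olfr73 had 3 fragments, at 0.405 (0.0835 to 1.18). The members with the lowest upper limits were Olfr1186, Olfr1487 and Olfr659 with no fragment, Olfr1256 with 3 and Olfr535 with 2. For Olfr1186, on a window of 10.2 kb, 3 fragments made 0.293 per kb, and the upper end of the exact interval was 0.360.

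Genes that olfactory neurons use to read or choose receptors were mostly accessible here. Of 26 listed genes 24 were open, with a median of 24.1 fragments per kb, against 76.6% of all protein-coding genes, so the share describes genes at large as well as this list. The regulators Atf5, Ldb1, Emx2 and Lhx2 had 527, 270, 120 and 96.3 fragments per kb. Omp, the olfactory marker protein, had 21.2 and the G protein subunit gene Gnal 25.8. Not open were Rtp1, a chaperone that brings receptors to the membrane, at 2.20, and Cnga2, a channel subunit of odorant signalling, at 4.27. As markers of other cells, 5 of 5 megakaryocyte genes and 4 of 5 genes each of erythroid, myeloid, B and T cells were open, and their medians were 249, 25.3, 17.5, 18.6 and 12.3 fragments per kb.

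Members differed by cluster. They formed 50 clusters, with neighbours in a cluster less than 1 Mb apart, on 18 chromosomes, and 25 clusters had an open member. Chromosome 2 held the most members, and these had 0.568 fragments per kb (0.538 to 0.600), none was open and 197 were below background. The 66 members on chromosome 19 had 0.801, also with none open. Among chromosomes with at least 10 members the highest level was on chromosome 1, where 8 of 27 members were open, with 6.53 fragments per kb and a median of 3.75. Chromosome 7 held 244 members and 24 of the 67 open ones. Among the 22 clusters with at least 10 members the summed level ran from 0.434 to 11.7 fragments per kb, and the median member from 0.411 to 4.56. The cluster with 11.7 was that of Olfr56, and its median was 1.31. Without Olfr56 the summed level of this cluster was 1.83 and that of chromosome 11 fell from 6.13 to 2.24.

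**Figure D3:**
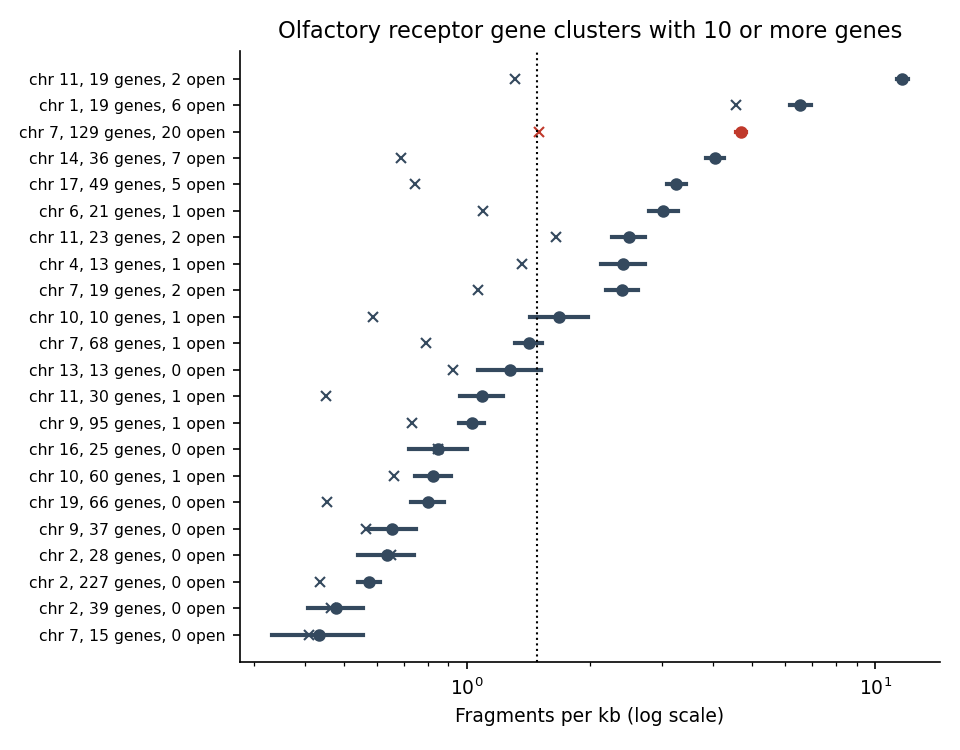
Fragments per kb (horizontal log axis) in the 22 clusters with at least 10 members. Circles are the summed level with exact 95% Poisson intervals as bars, crosses the median member, red the β-globin cluster, and the dotted line the gene-distant level of 1.48. The clusters of chromosome 2 have no open member and lie left of the line.

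The class I cluster around the β-globin genes was more accessible than the rest of the family. Its 129 members had 4.70 fragments per kb (4.57 to 4.83) and a median of 1.498, against 2.07 (2.04 to 2.10) and 0.654 for the 1006 members elsewhere. Open were 20, or 15.5%, against 47, or 4.67%. A cluster of 19 members on chromosome 1 had 6.56 fragments per kb, a median of 4.56 and 31.6% open. Members of the globin cluster lay nearer to protein-coding starts outside the family (median 77231 against 151558 bp) and had more GC (median 38.0% against 36.6%). The part of these in the difference was not tested. Near the globin genes 4 of the 13 members within 100 kb were open. Olfr633 had 28.3 fragments per kb (24.4 to 32.7), Olfr67 13.3 (11.1 to 15.9), Olfr632 10.9 (8.79 to 13.4) and Olfr65 7.12 (5.30 to 9.36). The other 9 ran from 0.976 in Olfr629 to 5.74 in Olfr631, the latter on 17 fragments. The adult globin genes Hbb-bt and Hbb-bs had 25.3 (20.3 to 31.2) and 9.82 (6.84 to 13.7), while the embryonic genes Hbb-bh1 and Hbb-y had 4.54 and 3.75 and were not open. Olfr67 (chr7:103784594-103791821), 20703 bp from a globin gene, had 42.3% of its 123 fragments in the upstream stretch with the CTCF match shown above.

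Level fell with distance from genes outside the family. Within 10 kb of the nearest protein-coding start the summed level was 13.6 fragments per kb (23 members), or 8.75 without Olfr56, then 4.31 at 10 to 50 kb (214), 2.32 at 50 to 100 kb (207), 1.05 at 100 to 300 kb (439) and 0.745 beyond (252). Medians followed the same order, from 4.43 to 0.507. Of 444 members within 100 kb 60 were open, and of 691 farther away 7 were. Level also rose with GC content, with summed levels of 0.611, 0.806, 1.59 and 5.79 in 4 equal groups of members from lowest to highest GC. Across the 1135 members the Spearman correlation of level was 0.48 with GC content, -0.43 with distance, 0.06 with sequence uniqueness and 0.10 with window length, given as descriptions since neighbouring members share a region. GC and distance moved together, with 208 of 284 members of the highest GC group within 100 kb of an outside start and 55 of 284 of the lowest. Among members farther than 100 kb from an outside start, the level still ran from 0.546 to 1.95 over the GC groups, and in the highest group it was 6.97 within 100 kb against 1.95 beyond.

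Fragment lengths over members that were not open had the pattern of nucleosomes. Short fragments, with less than the length of DNA wound around a nucleosome, were 13.4% (12.7 to 14.1) of the 9193 fragments, against 12.7% (12.5 to 12.8) in gene-distant windows not open and 42.6% within 1 kb of the starts of other coding genes. Fragments from that length to just under the length for a pair of nucleosomes were 41.5%, 42.2% and 28.97%, and their ratio to short fragments was 3.10, 3.34 and 0.681. Open members were intermediate, with 26.7% (26.01 to 27.5) short and a ratio of 1.25. Over all members 21.6% (21.1 to 22.2) were short, against 19.7% in all gene-distant windows. Among the highest members the share ran from 49.4% in Olfr658 to 16.2% in Olfr90. The median length was 240 bp over members not open, 225 bp over open members and 180 bp at other starts. The mean of read pairs per fragment was 6.02 over members not open and 6.67 at other starts. This describes the copies read of recovered fragments, and its part in the difference in level was not tested.

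**Figure D4:**
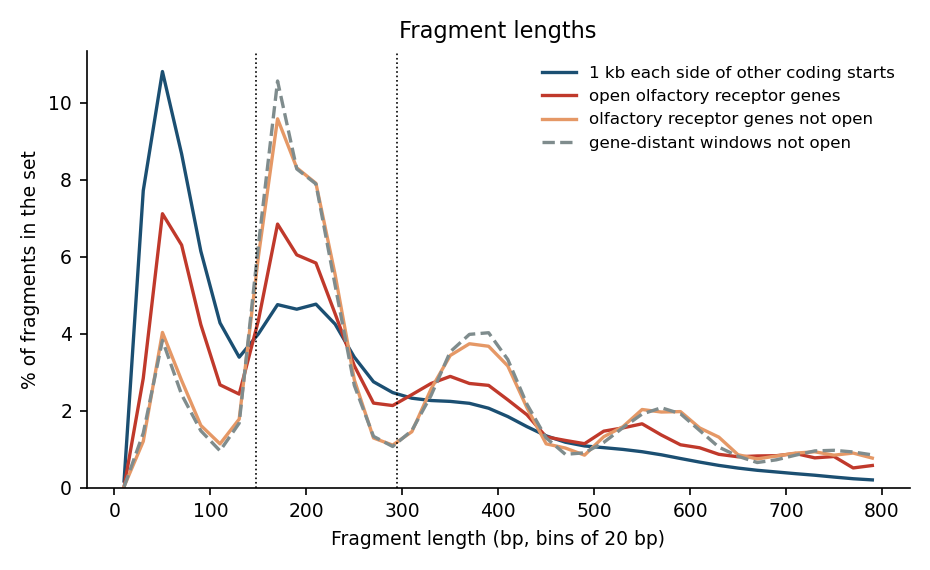
Share of fragments (%, vertical axis) by length in bins of 20 bp (horizontal axis), with dotted lines at the DNA length of 1 nucleosome and of a pair. The line of members not open follows that of gene-distant windows not open (13.4% and 12.7% short fragments), and open members lie between these and the starts of other coding genes (42.6%).

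Olfactory receptor fragments per cell varied somewhat more than Poisson counts in proportion to depth would. The expected count of a cell was its depth times 1 share for all cells, so a change of the share with depth is part of these values. A cell held a median of 6 member fragments, and 1.10% of cells had none, against 0.686% expected from such a Poisson count. The variance around the expected count was 1.33 times the Poisson value for all members, 1.18 times for open members and 1.52 times for members not open. In gene-distant windows, which hold more fragments per cell, it was 6.49 times. A single cell stood apart, with 19.3% of its fragments at start sites where all other cells had at least 35.1%. It held 86 member fragments, where the next cell had 36, and 4.55% of its fragments were gene-distant, against 0.579% over all cells. Without it the values were 1.29, 1.18, 1.43 and 3.12 times.

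The share of fragments in members was higher in deeper cells and lower in cells with more fragments at start sites. In 4 equal groups of cells by depth it was 0.0543%, 0.0544%, 0.0593% and 0.0663%, and the highest group had 1.22 times (1.17 to 1.27) the share of the lowest. In 4 groups by start-site share it was 0.0679%, 0.0603%, 0.0558% and 0.0515%, a ratio of 0.759 (0.730 to 0.789). Both ratios were farther from 1 for members that were not open, at 1.47 (1.38 to 1.57) by depth and 0.640 (0.601 to 0.680) by start-site share, against 1.08 (1.03 to 1.14) and 0.849 (0.808 to 0.892) for open members. Gene-distant windows not open had 1.41 (1.39 to 1.44) and 0.649 (0.639 to 0.660). Depth and start-site share were linked, with a median start-site share of 49.3% in the shallowest group and 44.4% in the deepest. Within each depth group, the ratio by start-site share for members not open was 0.780, 0.730, 0.713 and 0.683. Start-site fragments are part of the denominator. With only fragments away from starts there, and member fragments unchanged, the ratios for all members were 1.13 by depth and 0.849 by start-site share. For members not open they were 1.36 (1.28 to 1.46) and 0.715 (0.672 to 0.761). For open members they were 1.003 (0.955 to 1.055) and 0.9499 (0.904 to 0.998), and the interval by depth took in 1. Across the 3629 cells the Spearman correlation of the member share was 0.18 with depth and -0.23 with start-site share, as a description.

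**Figure D5:**
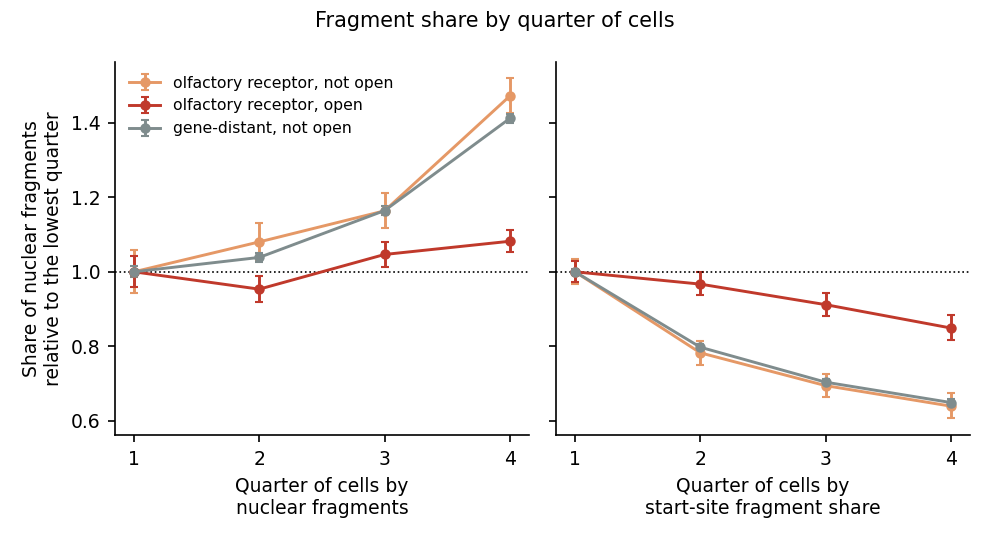
Share of nuclear fragments relative to the lowest group (vertical axis, which does not start at 0) in 4 groups of cells by nuclear fragments (left) and by share of fragments at start sites (right), 907 or 908 cells each. Points are sums over cells and bars exact 95% binomial intervals of each share. Members not open and gene-distant windows not open move together, to 1.47 and 1.41 by depth.

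In the cells used, antibody counts went with small differences in the member share. Cells with high counts were compared with cells with low counts. For CD68, CD106, CD201, P2X7R, CD163, CD183 and CD206, high meant only 1 or more tags and low meant 0. CD206, which had the highest ratio, had 82 high cells, and CD163 had 71. For 12 antibodies the ratio of cells with high to cells with low counts ran from 0.944 to 1.08. In 2 the interval left out 1. In gene-distant windows 7 of 12 did, the ratios ran from 0.966 to 1.03, and more fragments made intervals narrower. The intervals take counts as Poisson. Between cells the variance was 1.33 times the Poisson value for members. In gene-distant windows it was 6.49 times, or 3.12 times without the single cell that stood apart. The intervals are thus too narrow, most of all in gene-distant windows, and both counts of antibodies may be too high. One of the 2 antibodies for members was CD274 (PD-L1, an immune checkpoint ligand), with a share of 0.0583% in 937 high cells and 0.0618% in 877 low cells, a ratio of 0.944 (0.910 to 0.979). In the 363 cells with 50 or more tags the CD274 ratio was 1.03 (0.925 to 1.15), on the other side of 1, and the interval took in 1. These cells were chosen by a sum that includes CD274 tags, so high and low there need not mean the same as in all cells used. The 12 ratios there ran from 0.821 (0.590 to 1.11) for CD163 to 1.45 (1.11 to 1.88) for CD206. The other antibody of the pair was CD357 (the receptor GITR) at 1.03 (1.0002 to 1.07), whose interval took in 1 without the single cell that stood apart. The CD274 ratio was 0.839 (0.792 to 0.888) over members not open and 1.02 (0.975 to 1.07) over open members. Cells with many against few summed tags of all antibodies had 0.958 (0.925 to 0.993) over all members, 0.864 (0.817 to 0.914) over members not open and 1.03 (0.981 to 1.08) over open members. CD274 tags are part of this sum, so the 2 splits share cells and are not separate observations. The limits were 27 or more and 12 or fewer for CD274, and 39 or more and 21 or fewer for the sum. For CD274, gene-distant windows not open had 0.904 (0.890 to 0.917), and 0.855 without the cell that stood apart, where members not open had 0.816. The high and low cells had median depths of 10311 and 10486 and start-site shares of 47.1% and 46.6%, and the part of these in the ratio was not tested.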

How the data were processed

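LT-HSCs of 1 sample were sequenced as 3 libraries, for ATAC, gene expression and antibody tags. The deposited ATAC values were counts: 1 line per unique fragment, with its read pairs and barcode. Per the file headers and the submitters' processing notes, the authors made them with Cell Ranger ARC 2.0.2 on mm10, which collapses duplicate read pairs and shifts fragment ends for the transposase. Deposited antibody tag counts per barcode came from CITE-seq-Count, of a version that the sources used here do not give. The deposited table of counts per barcode gave total fragments, fragments at transcription start sites and the cell call. The RNA matrix was not analysed here.

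Barcodes of the antibody table with at least 10 summed tags were kept as cells. Doublets were not removed. Genes were taken from GENCODE M21, and a fragment was counted if it overlapped the window by 1 base or more. Family totals counted each fragment once over merged windows. The background was 30082 windows of 5 kb, each at least 100 kb from any annotated gene. Short fragments were those below the nucleosomal DNA length that the length plot marks with its first dotted line. A 50-mer was unique if neither it nor its reverse complement occurred elsewhere in the GRCm38.p6 assembly, the genome of mm10. With 1 library there were no replicates and no tests, and intervals are exact, at 95%, from the Poisson distribution for levels, the binomial for shares and the conditional binomial for ratios, and cover counting error only.

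The genes named were the 10 with the highest lower limit of fragments per kb, the 5 with the lowest upper limit, 10 receptors listed by symbol, of which Olfr151 is not annotated as protein-coding, and those within 100 kb of a β-globin gene. Members on either side of the open limit were named by their rank, and others are said to have been picked after their values were seen. Members and lists were chosen with earlier results of these data known. Alternatives changed the window, the counting, the cells, the background, the thresholds, the denominator and the groups of cells. Counting and calls were tested on simulated data. Software was Python 3.11.15 with numpy 2.4.6, pandas 2.3.3, scipy 1.17.1, numba 0.67.0 and matplotlib 3.10.9.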

Additional observations from a re-analysis of the deposited data

Results flagged for a closer look

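Olfactory receptor fragments were also present in barcodes left out of the comparisons. In the 95 cells with fewer than 10 antibody tags they were 0.0744% of fragments (796 fragments), against 0.0599% in the cells used. The ratio to the cells used was 1.75 (1.58 to 1.92) over members not open and 0.919 (0.825 to 1.02) over open members. In the 645 called cells without antibody counts they were 0.0560% (719 fragments). Those cells were shallower, with a median of 1810 fragments against 10300 in the cells used. In the 303298 barcodes not called as cells, with a median of 1 fragment each, they were 0.110% (3083 fragments). There the ratio to the cells used was 3.10 (2.95 to 3.25) over members not open and 1.01 (0.949 to 1.08) over open members. It was 2.64 (2.61 to 2.67) in all gene-distant windows, open ones included, and 0.823 at annotated starts.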

How the results depend on the processing

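No paired analysis was possible because there was 1 ATAC library and no replicates. The summed ratio of members to gene-distant DNA, 1.59, was 1.69 over gene bodies, 1.71 over the 2 kb upstream, 1.62 within 1 kb of starts, 1.55 by midpoints, 1.35 in members clear of other genes, 1.13 with background windows 50 kb from genes, 1.62 in cells with 50 or more tags and 1.74 in short fragments. With the median member over the summed background it turned to 0.459. Alternatives chosen after seeing the data gave 1.35 without windows over 100 kb, 1.14 as a ratio of medians and 1.401 in members with at least 90% unique 50-mers. The 67 open members became 106 above 2 times the background, 44 in cells with 50 or more tags, where fewer fragments were counted, and 143 with a threshold at 3 times the median gene-distant window, added later. The share of short fragments, 21.6%, was 24.9% upstream, 23.1% around starts, 16.4% with a limit of 100 bp and 22.2% in cells with 50 or more tags. The ratio by depth, 1.22, was 1.27 in members clear of other genes and 1.13 with fragments away from starts as the denominator. It was 1.29 between the lowest and highest 10% of cells and 1.47 in members not open, the last added later. The ratio by start-site share, 0.759, was 0.874 in cells with 50 or more tags, 0.719 in clear members and 0.849 with the denominator away from starts. It was 0.692 between the outer 10% groups and 0.640 in members not open. The count of antibodies whose interval left out 1 fell from 2 to 1 with the denominator away from starts. It was also 1 without the deepest 5% of cells, without the cell that stood apart and in members not open. It was 3 with a centred log ratio of tags (CD106, CD201 and CD274) and 3 in cells with 50 or more tags (CD27 at 1.13, CD68 at 0.874 and CD206 at 1.45). In the 363 cells with 50 or more tags, chosen by a sum that includes these tags, the ratios lay on the other side of 1, at 1.03 for CD274 and 0.986 for CD357. The open count was also 45 above 5 times the background, 46 around starts, 47 upstream only, 50 in short fragments, 57 in clear members and 60 over gene bodies. Causes of these shifts were not tested. Depth limits single members, with a median of 6 fragments each, and 573 members were neither open nor below background.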
